A study of Mus musculus with 12 samples.

Results

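The 10 genes described here encode the CDK inhibitors (Cdkn1a, Cdkn1b, Cdkn1c, Cdkn2a, Cdkn2b, Cdkn2c and Cdkn2d) and the pocket proteins (Rb1, Rbl1 and Rbl2). They were taken by gene name from a table of 54347 genes, and 9 of the 10 were among the 15319 genes with enough reads to be tested. Cdkn2a was not. Expression was measured by RNA sequencing in PYMT cells, a mouse mammary tumour line that bears the name of the polyoma middle T antigen, grown in matrigel, a gel of basement membrane proteins. TGFB2 cells received transforming growth factor beta 2 at 5 ng/mL. BMP4 cells received bone morphogenetic protein 4 at 5 ng/mL, BMP4-TGFB2 cells received both ligands at that dose, and NT cells received neither. Treatment lasted 3 days, the medium was then changed, and RNA was taken 2 days later. This was the only time sampled, so earlier responses are not seen. Each group had 3 libraries, given as biological replicates. The labels do not say what separated the replicates or whether the line is a single clone. A p-value here thus measures only the spread among these libraries, which may be technical. Unless stated, that is the spread left after differences between replicate numbers are taken out.

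Cyclin-dependent kinases drive the cell cycle, and 2 families of small proteins restrain them. The CIP/KIP proteins p21 (Cdkn1a), p27 (Cdkn1b) and p57 (Cdkn1c) bind cyclin-CDK complexes, above all those of CDK2, whereas the INK4 proteins p16 (Cdkn2a), p15 (Cdkn2b), p18 (Cdkn2c) and p19 (Cdkn2d) bind CDK4 and CDK6 and keep them from their D-type cyclins. The pocket proteins pRB (Rb1), p107 (Rbl1) and p130 (Rbl2) hold E2F transcription factors until CDKs phosphorylate them, and in epithelial cells induction of Cdkn2b and Cdkn1a together with loss of Myc is the classical account of arrest by TGF-beta.

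The promoter sequences of the 2 genes below are shown because Cdkn1a gave the largest rise among the 10 genes and Rbl1 fell to 0.485 of NT with TGFB2 and 0.379 with both ligands, and each holds a motif that is rare among promoters. RefSeq (GRCm38.p6) gave start sites for 8 of the 10 genes, all but Cdkn1c and Rb1. Each line gives the 250 bases before a start site, 5′ to 3′ on the strand of the gene. The capitals mark a p53 core in the upstream Cdkn1a promoter, GC boxes in the downstream Cdkn1a promoter, and an E2F motif in the Rbl1 promoter.
Cdkn1a upstream start, chr17:29090729-29090978, plus strand: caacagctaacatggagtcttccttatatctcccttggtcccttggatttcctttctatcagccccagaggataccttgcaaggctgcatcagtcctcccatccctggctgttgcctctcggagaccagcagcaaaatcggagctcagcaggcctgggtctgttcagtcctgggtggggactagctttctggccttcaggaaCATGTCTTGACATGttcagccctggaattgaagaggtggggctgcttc
Cdkn1a downstream start, chr17:29093519-29093768, plus strand: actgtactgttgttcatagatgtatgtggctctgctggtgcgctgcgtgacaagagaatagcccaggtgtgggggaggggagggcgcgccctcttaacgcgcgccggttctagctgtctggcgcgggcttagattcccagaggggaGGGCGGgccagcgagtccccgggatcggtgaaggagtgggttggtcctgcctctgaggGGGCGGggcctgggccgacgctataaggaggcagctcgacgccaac
Rbl1 start, chr2:157204535-157204784, minus strand: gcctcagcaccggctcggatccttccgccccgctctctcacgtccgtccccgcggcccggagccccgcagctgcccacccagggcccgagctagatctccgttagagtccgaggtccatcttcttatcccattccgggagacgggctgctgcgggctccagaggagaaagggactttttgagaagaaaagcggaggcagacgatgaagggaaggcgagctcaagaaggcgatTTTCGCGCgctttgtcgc
The p53 core was searched as CATGNNNNNNCATG, the GC box as GGGCGG, the E2F motif as TTTCGCGC, TTTGGCGC or TTTCCCGC, and a SMAD palindrome as GTCTAGAC, each on both strands. Of 32817 promoter windows of the same length, 0.488% held the p53 core, 32.7% a GC box, 1.53% at least 1 E2F form, 0.256% the form TTTCGCGC and 0.168% the SMAD palindrome. The p53 core of Cdkn1a began 48 bases before its upstream start, and the E2F motif of Rbl1 began 18 bases before its start. An E2F form, TTTCCCGC, also began 99 bases before the upstream start of Cdkn2a, a gene with almost no counts here. No window of the 8 genes held GTCTAGAC. No window of Cdkn2c, which fell further than Rbl1, held any of the E2F forms or the p53 core. These matches describe letters and say nothing of binding in these cells.

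Library totals ran from 28543100 to 42167800 counts. Levels are given as CPM, counts per 1000000 scaled by TMM, for comparing a gene between libraries, and as TPM, the authors' length-scaled values, for comparing genes. Epithelial markers were high throughout, with all 9 above 1 TPM and summed levels of 4094 to 4742 TPM. Of 8 endothelial markers 0 averaged above 1 TPM over the 12 libraries. Fibroblast markers summed to at most 16.6 TPM and leukocyte markers to at most 16.8 TPM. The 8 mammary luminal markers include lactoferrin and caseins, and 7 averaged above 1 TPM. They summed to 162 to 248 TPM in TGFB2 libraries, 1371 to 2660 TPM in BMP4 libraries, 202 to 208 TPM in BMP4-TGFB2 libraries and 7181 to 13037 TPM in NT libraries. Lactoferrin (Ltf) made up most of the NT sum. It averaged 86.4, 1681, 92.2 and 8727 TPM in TGFB2, BMP4, BMP4-TGFB2 and NT cells. Elf5, Csn3, Wfdc18 and Prlr were also highest in NT cells. Gata3 (48.8, 80.0, 64.2 and 60.8 TPM) and Foxa1 (5.42, 4.28, 6.04 and 5.16 TPM), in the same order, did not follow Ltf. In bulk RNA, fewer cells of a type and less RNA per cell cannot be told apart, and the part of the luminal change in the results below was not tested. Replicate 1 libraries stood apart within every group. The mean of 27 E2F target genes, as log2 relative to the NT mean, was -1.97, -0.35 and -0.34 in TGFB2 replicates 1 to 3. It was -0.50, 0.12 and 0.08 in BMP4 libraries, -2.48, -0.79 and -0.45 in BMP4-TGFB2 libraries, and -0.36, 0.15 and 0.21 in NT libraries. The tests carried the replicate number as a block, a setting fixed together with the choice of genes. Values or counts without the block or without the replicate 1 libraries are given where they change a call. The fit without the replicate 1 libraries kept the block, so it is not a check on the block.

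Of the 9 genes tested with TGFB2, Cdkn1a rose and Cdkn1b, Cdkn2c and Rbl1 fell against NT. Over all genes tested 18.7% rose and 19.2% fell. With BMP4 alone Cdkn1a rose and no other gene of the 9 passed the threshold, an adjusted p under 0.05, against 8.60% of all genes that rose and 6.78% that fell. With both ligands Cdkn1a rose and Cdkn2c and Rbl1 fell, where 20.4% of all genes rose and 21.0% fell. With 9 genes tested, none of these counts is read as particular to the genes. The 3 comparisons share the NT libraries. Every library of the group lay beyond every NT library for Cdkn1a (higher), Cdkn2c and Rbl1 (lower) with TGFB2, where 19.4% of all genes lay wholly higher and 19.2% wholly lower. The same held for Cdkn1a (higher) and for Cdkn2c, Cdkn2d and Rbl1 (lower) with both ligands, against 20.8% and 20.5% of all genes, and for Cdkn2d alone (higher) with BMP4, against 11.7% wholly higher and 12.1% wholly lower. Log2 fold changes and adjusted p-values are from edgeR's quasi-likelihood test with Benjamini-Hochberg adjustment over all genes, errors after log2 fold changes are SE, and n is 3 per group throughout.

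**Figure D1:**
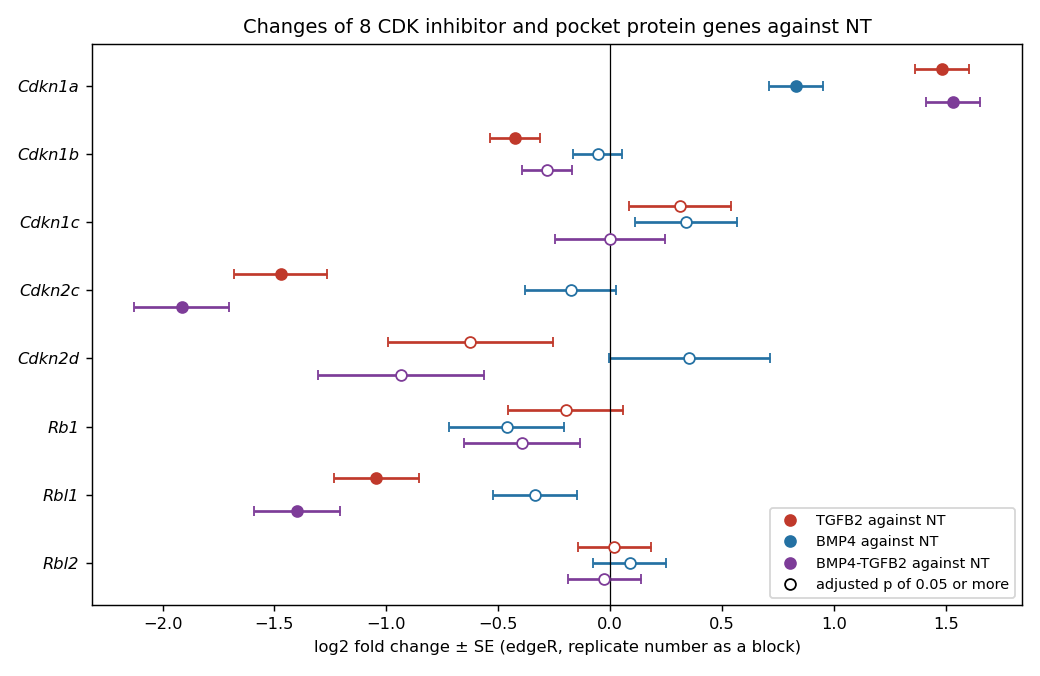
Log2 fold changes of 8 genes against NT, with SE bars, for TGFB2 (red), BMP4 (blue) and BMP4-TGFB2 (purple). Filled points passed at an adjusted p under 0.05. Cdkn1a lies to the right in all 3 treatments, and Cdkn2c and Rbl1 lie to the left in both groups with TGFB2.

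Among the CIP/KIP genes, Cdkn1a was both the most abundant and the one that rose. Cdkn1a (ENSMUSG00000023067.14, chromosome 17, 29090976 to 29100727 on GRCm38) encodes p21, which inhibits CDK2 complexes and is a classical p53 and SMAD target. It stood at 774, 548 and 476 CPM in TGFB2 replicates 1 to 3, at 512, 341 and 298 CPM in BMP4 libraries, at 758, 561 and 524 CPM in BMP4-TGFB2 libraries, and at 330, 156 and 177 CPM in NT libraries. Within each group replicate 1 was the highest, and the lowest library with TGFB2, alone or with BMP4, exceeded the highest NT library. The BMP4 libraries overlapped NT, because NT replicate 1 lay above BMP4 replicate 3, although each BMP4 library exceeded the NT library of its own number. The log2 fold change was 1.48 ± 0.12 with TGFB2 (2.79-fold; adjusted p = 1.4e-05), 0.83 ± 0.12 with BMP4 (1.78-fold; adjusted p = 0.00164) and 1.53 ± 0.12 with both (2.89-fold; adjusted p = 8.35e-06). The rise was seen in 3 of 3 replicate numbers in each treatment. Without the block the BMP4 rise no longer passed (log2 0.80, adjusted p = 0.178), and without the replicate 1 libraries it did (log2 0.93, adjusted p = 0.00428).

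Cdkn1b encodes p27, an inhibitor of CDK2 that accumulates in resting cells, mainly through slower degradation of the protein. Its transcript (ENSMUSG00000003031.14, chromosome 6, 134920401 to 134925513) had 57.4, 44.8 and 50.5 CPM in TGFB2 libraries, 85.3, 60.1 and 54.9 CPM in BMP4 libraries, 61.9, 55.9 and 50.6 CPM in BMP4-TGFB2 libraries, and 89.8, 61.4 and 57.3 CPM in NT libraries. The groups overlapped, each TGFB2 library lying below the NT library of its own number. The fall with TGFB2 was small, -0.43 ± 0.11 (adjusted p = 0.0127), and did not pass without the block (-0.45, adjusted p = 0.140) or without the replicate 1 libraries (-0.31, adjusted p = 0.0608). Leaving out TGFB2 replicate 1 or 2 or NT replicate 1 also ended the call. The log2 fold change of Cdkn1b was -0.06 ± 0.11 with BMP4 (adjusted p = 0.796) and -0.28 ± 0.11 with both ligands (adjusted p = 0.0653). The change with both ligands passed in 1 of 20 alternatives, limma voom (adjusted p = 0.0487).

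Cdkn1c encodes p57, the imprinted member of the family, which acts mainly in development. It was scarce, at 1.62 to 7.82 CPM over the 12 libraries, and replicate 2 was the highest library in every group (7.82, 7.37, 5.66 and 7.31 CPM in TGFB2, BMP4, BMP4-TGFB2 and NT cells). The spread between replicates thus exceeded any difference between group means, which were 4.74 ± 2.68, 4.80 ± 2.35, 3.82 ± 1.88 and 4.12 ± 2.91 CPM in the same order (SD). The log2 fold changes were 0.31 ± 0.23 with TGFB2 (adjusted p = 0.316), 0.34 ± 0.23 with BMP4 (adjusted p = 0.369) and -0.0013 ± 0.24 with both (adjusted p = 0.997).

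**Figure D2:**
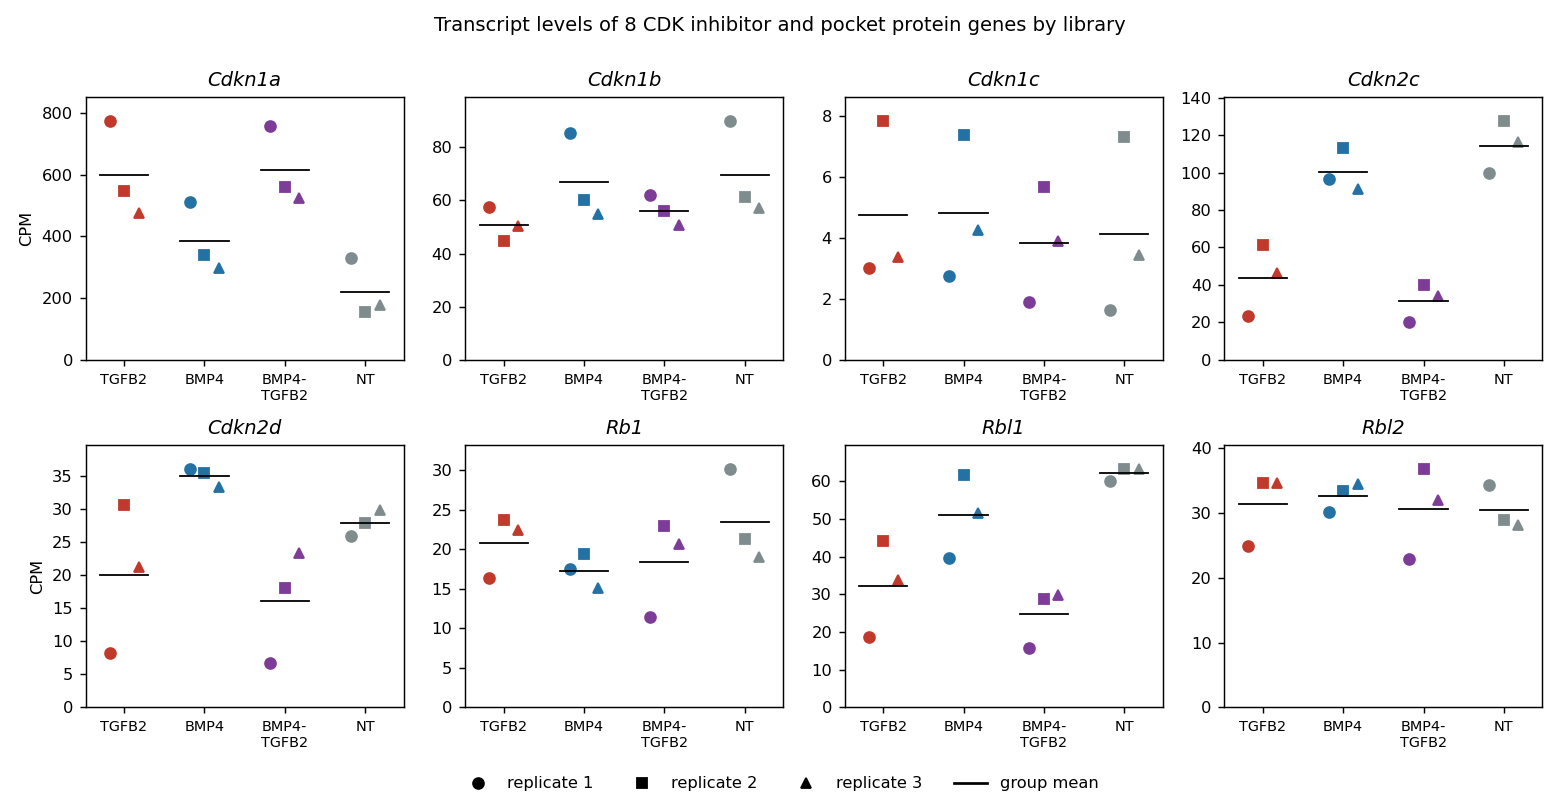
CPM of 8 genes in each of the 12 libraries, by group (TGFB2, BMP4, BMP4-TGFB2, NT) and replicate number (circle, square, triangle), with group means as bars and axes from 0. Cdkn1a reaches 774 CPM in a TGFB2 library and 156 to 330 CPM in NT libraries, while Cdkn2c and Rbl1 are lowest in the replicate 1 libraries of both groups with TGFB2.

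Among the INK4 genes, only Cdkn2c and Cdkn2d were expressed at more than a trace, and neither rose with any treatment. Cdkn2c (ENSMUSG00000028551.14, chromosome 4, 109660876 to 109667189) encodes p18, an inhibitor of CDK4 and CDK6. It had 23.2, 61.2 and 46.4 CPM in TGFB2 libraries, 96.4, 113 and 91.4 CPM in BMP4 libraries, 20.0, 40.1 and 34.3 CPM in BMP4-TGFB2 libraries, and 99.6, 127 and 116 CPM in NT libraries. All 6 libraries with TGFB2 lay below all 6 without it. The fall was -1.47 ± 0.21 with TGFB2 (0.360 of NT; adjusted p = 0.000406) and -1.91 ± 0.21 with both ligands (0.265 of NT; adjusted p = 6.67e-05), in 3 of 3 replicate numbers each. It passed without the block (-1.39, adjusted p = 0.00953, and -1.86, adjusted p = 0.00160) and without the replicate 1 libraries (-1.19 and -1.72). With BMP4 alone the change was -0.18 ± 0.20 (adjusted p = 0.625).

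Cdkn2d encodes p19, whose transcript in other cells varies through the cell cycle (ENSMUSG00000096472.2, chromosome 9, 21288410 to 21291407). It stood at 8.21, 30.6 and 21.3 CPM in TGFB2 libraries, 36.2, 35.5 and 33.3 CPM in BMP4 libraries, 6.73, 18.1 and 23.3 CPM in BMP4-TGFB2 libraries, and 25.9, 27.9 and 29.8 CPM in NT libraries. The replicate 1 libraries with TGFB2 were far below the rest, and TGFB2 replicate 2 lay above every NT library. No change against NT passed: -0.62 ± 0.37 with TGFB2 (adjusted p = 0.213), 0.35 ± 0.36 with BMP4 (adjusted p = 0.575) and -0.93 ± 0.37 with both (adjusted p = 0.0676). The BMP4-TGFB2 libraries nevertheless lay wholly below NT and the BMP4 libraries wholly above it. In 4 of 20 alternatives the fall with both ligands passed: no filter, DESeq2, and leaving out BMP4 replicate 1 or BMP4-TGFB2 replicate 3.

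Cdkn2a and Cdkn2b, neighbours on chromosome 4, were close to silent. Cdkn2a (chromosome 4, 89274471 to 89294653), which encodes p16 and, in another frame, the ARF protein, had 4, 0 and 0 counts in TGFB2 libraries, 1, 2 and 0 in BMP4 libraries, 3, 0 and 0 in BMP4-TGFB2 libraries, and 2, 1 and 4 in NT libraries. A count of 0 allows up to 3 counts, or 0.0832 to 0.105 CPM in these libraries, by counting error only. Cdkn2b (chromosome 4, 89306299 to 89311039) encodes p15, the INK4 inhibitor first known as a TGF-beta target in human keratinocytes. It had 29, 2 and 1 counts in TGFB2 libraries, 9, 2 and 0 in BMP4 libraries, 11, 1 and 6 in BMP4-TGFB2 libraries, and 4, 12 and 4 in NT libraries. The highest value, 29 counts or 0.686 CPM, came from TGFB2 replicate 1, and the other 2 TGFB2 libraries were below every NT library. Cdkn2b did not pass in any comparison (adjusted p = 0.833 with TGFB2, 0.456 with BMP4 and 0.829 with both), and no fold is given so near the floor. The genes on either side of the locus were expressed: Mtap, 93390 bases from Cdkn2a, had a median of 16.6 TPM (3.79 to 59.1), and Dmrta1, 368397 bases from Cdkn2b, a median of 11.3 TPM (4.76 to 19.6). The 2 inhibitor genes lie 11646 bases apart.

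**Figure D3:**
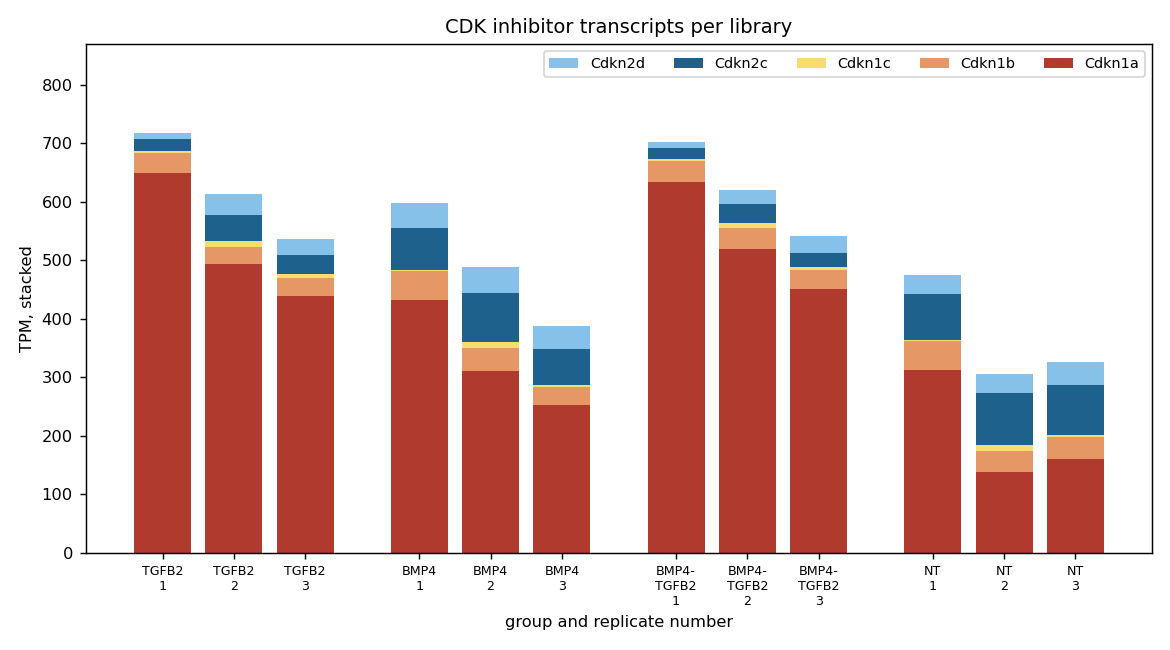
TPM of 5 CDK inhibitor genes stacked per library, in the order TGFB2, BMP4, BMP4-TGFB2 and NT, replicates 1 to 3 within each. Cdkn2a and Cdkn2b are left out as near 0. Cdkn1a forms the largest block in every library, and the Cdkn2c and Cdkn2d blocks are thinnest in the replicate 1 libraries with TGFB2.

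On the length-scaled TPM scale Cdkn1a was the most abundant of the 10 genes in every group, and its lead over the rest grew with TGFB2. Its mean level was 527 ± 109 TPM in TGFB2 cells, 332 ± 92.0 TPM in BMP4 cells, 535 ± 92.4 TPM in BMP4-TGFB2 cells and 203 ± 94.5 TPM in NT cells (SD). In NT cells Cdkn2c came next at 83.9 ± 4.84 TPM, then Cdkn1b at 41.3 ± 8.47, Cdkn2d at 34.7 ± 3.08, Rbl1 at 22.1 ± 1.31, Rbl2 at 10.6 ± 1.66, Rb1 at 10.1 ± 4.05 and Cdkn1c at 5.65 ± 4.75 TPM. The ranges of Cdkn1b and Cdkn2d, of Rbl2 and Rb1, and of Rb1 and Cdkn1c overlapped in NT cells, and the other neighbours in that order down to Cdkn1c did not. In TGFB2 cells Cdkn2c, Cdkn1b and Cdkn2d overlapped at 32.4 ± 12.5, 31.2 ± 2.59 and 25.1 ± 13.4 TPM, as did Rbl1, Rbl2 and Rb1 at 12.1 ± 5.22, 11.3 ± 3.51 and 10.6 ± 6.02 TPM. Cdkn1a made up 80.4% to 90.4% of the summed TPM of the 7 inhibitor genes in TGFB2 libraries, 63.7% to 72.4% in BMP4 libraries, 83.4% to 90.3% in BMP4-TGFB2 libraries and 44.9% to 65.4% in NT libraries. The INK4 sum was 30.9, 81.3 and 61.3 TPM in TGFB2 libraries, 114, 129 and 100.3 TPM in BMP4 libraries, 30.0, 56.5 and 53.1 TPM in BMP4-TGFB2 libraries, and 112, 121 and 124 TPM in NT libraries. All 6 libraries with TGFB2 had a lower INK4 sum and a higher Cdkn1a share than the 6 libraries without it.

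Of the pocket protein genes, only Rbl1 changed. Rbl1 (ENSMUSG00000027641.13, chromosome 2, 157145893 to 157204534) encodes p107, the pocket protein of cycling cells, whose gene is itself an E2F target. It had 18.6, 44.1 and 33.8 CPM in TGFB2 libraries, 39.7, 61.6 and 51.6 CPM in BMP4 libraries, 15.7, 28.8 and 29.8 CPM in BMP4-TGFB2 libraries, and 60.2, 63.3 and 63.4 CPM in NT libraries. The NT libraries agreed closely and every library with TGFB2 lay below them, the replicate 1 libraries the lowest. The fall was -1.04 ± 0.19 with TGFB2 (0.485 of NT; adjusted p = 0.00189) and -1.40 ± 0.19 with both ligands (0.379 of NT; adjusted p = 0.000275), in 3 of 3 replicate numbers each. Without the replicate 1 libraries it was -0.71 (adjusted p = 0.00501) and -1.11 (adjusted p = 0.000606), and without the block it passed as well (adjusted p = 0.0440 and 0.00870). With BMP4 alone Rbl1 stood at -0.33 ± 0.19 (adjusted p = 0.272). The E2F motif shown above lies in its promoter, and its part in the fall was not tested.

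Rb1 and Rbl2 did not pass in any treatment. Rb1, the retinoblastoma gene, had 16.4 to 23.6 CPM in TGFB2 libraries, 15.0 to 19.3 CPM in BMP4 libraries, 11.5 to 22.9 CPM in BMP4-TGFB2 libraries and 19.0 to 30.2 CPM in NT libraries, with changes of -0.20 ± 0.26 (adjusted p = 0.584), -0.46 ± 0.26 (adjusted p = 0.268) and -0.39 ± 0.26 (adjusted p = 0.257). Its sign with TGFB2 and with both ligands turned without the replicate 1 libraries (0.20 and 0.11). Rbl2, which encodes p130, the pocket protein of resting cells, had 24.9 to 34.7, 30.2 to 34.4, 22.9 to 36.9 and 28.2 to 34.3 CPM in TGFB2, BMP4, BMP4-TGFB2 and NT libraries, with changes of 0.02 ± 0.16 (adjusted p = 0.946), 0.09 ± 0.16 (adjusted p = 0.788) and -0.03 ± 0.16 (adjusted p = 0.916). The libraries were unstranded, and both genes share exon bases with expressed genes on the other strand: Rb1 with Rcbtb2 (109% of its mean CPM) and Lpar6 (81.5%), Rbl2 with Aktip (141%), so their levels are uncertain to that extent. On the TPM scale the ratio of Rbl1 to Rbl2 was 0.828 to 1.33 in TGFB2 libraries, 1.41 to 1.72 in BMP4 libraries, 0.727 to 1.197 in BMP4-TGFB2 libraries and 1.74 to 2.38 in NT libraries. Each range lay below that of NT, and those of the groups with TGFB2 lay below that of BMP4.

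Adding BMP4 to TGFB2 changed none of the 9 genes past the threshold, in a comparison where 0.0392% of all genes, 6 in number, passed with edgeR. At an unadjusted p under 0.05 there were 1056 genes, among them 0 of the 9. The log2 fold changes in BMP4-TGFB2 against TGFB2 cells were 0.05 ± 0.12 for Cdkn1a, 0.14 ± 0.11 for Cdkn1b, -0.44 ± 0.21 for Cdkn2c, -0.31 ± 0.37 for Cdkn2d and -0.36 ± 0.19 for Rbl1. Cdkn2c and Rbl1 were lower with both ligands in 3 of 3 replicate numbers, but their groups overlapped, and their adjusted p-values were 0.745 and 0.834. In a fit of these 2 groups alone Cdkn2c passed (adjusted p = 0.0432), as did 500 genes.

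Adding TGFB2 to BMP4 changed 4 of the 9, where 22.7% of all genes passed: Cdkn1a rose, and Cdkn2c, Cdkn2d and Rbl1 fell. Cdkn1a was higher by 0.70 ± 0.12 in BMP4-TGFB2 than in BMP4 cells (adjusted p = 0.00244), Cdkn2c lower (-1.74 ± 0.21; adjusted p = 0.000391), Cdkn2d lower (-1.29 ± 0.37; adjusted p = 0.0326) and Rbl1 lower (-1.07 ± 0.19; adjusted p = 0.00317). The libraries of the 2 groups did not overlap for any of the 4, against 13.9% of all genes wholly higher and 14.4% wholly lower. Without the block only Cdkn2c passed (adjusted p = 0.00824), and Cdkn1a (0.210), Cdkn2d (0.158) and Rbl1 (0.0572) did not. The Cdkn2d call also ended without BMP4 replicate 1 or without BMP4-TGFB2 replicate 1 or 2.

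Set directly against TGFB2, BMP4 cells had less Cdkn1a (-0.65 ± 0.12; adjusted p = 0.00411) and more Cdkn2c (1.30 ± 0.21; adjusted p = 0.00214), Rbl1 (0.71 ± 0.19; adjusted p = 0.0253) and Cdkn1b (0.37 ± 0.11; adjusted p = 0.0419), 4 of 9 genes where 19.6% of all genes passed. Cdkn2d was higher in all BMP4 libraries than in any TGFB2 library, at 0.98 ± 0.37 (adjusted p = 0.0935). Cdkn2c was likewise wholly higher, as were 13.0% of all genes. The Cdkn2d difference passed with no filter and with DESeq2. Without the block only Cdkn2c passed (adjusted p = 0.0414), with adjusted p-values of 0.255 for Cdkn1a, 0.234 for Rbl1 and 0.303 for Cdkn1b. Without the replicate 1 libraries Cdkn1a, Cdkn2c and Rbl1 passed and Cdkn1b did not (adjusted p = 0.176). The Rbl1 call also ended without TGFB2 replicate 1 or 3 or without any single BMP4 library, and the Cdkn1b call without TGFB2 replicate 1 or 2, any single BMP4 library, BMP4-TGFB2 replicate 3 or NT replicate 2.

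The effect of TGFB2 on Cdkn1a was smaller where BMP4 was present: 0.70 in the presence of BMP4 and 1.48 in its absence, a difference of -0.78 ± 0.17 on the log2 scale (adjusted p = 0.0494), where 1.83% of all genes had a difference that passed. Cdkn1a averaged 614 ± 126 CPM in BMP4-TGFB2 cells, 384 ± 113 CPM in BMP4 cells, 599 ± 155 CPM in TGFB2 cells and 221 ± 95.0 CPM in NT cells (SD). The call was marginal, holding in 4 of 19 alternatives and not without the block (adjusted p = 0.714) or the replicate 1 libraries (adjusted p = 0.0713). Leaving out any single library other than NT replicate 1 ended it. For Cdkn1b (0.20 ± 0.16), Cdkn2c (-0.27 ± 0.29), Cdkn2d (-0.66 ± 0.51) and Rbl1 (-0.02 ± 0.27) the difference did not pass (adjusted p = 0.587, 0.714, 0.582 and 0.982).

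Genes of cyclins, of their kinases and of the activators of those kinases fell with TGFB2 more often than they rose. The list of 18 includes the CDK-activating kinase and the Cdc25 phosphatases, so not all are targets of the inhibitors. Of these 18 genes, 10 fell and 1 rose with TGFB2, 2 fell with BMP4, and 12 fell with both. The 1 that rose was Mnat1 (0.34, adjusted p = 0.0263), a subunit of the CDK-activating kinase, named after its value was seen. The 2 that fell with BMP4 were Cdk2 (-0.30, adjusted p = 0.0455) and Ccnh (-0.42, adjusted p = 0.0375), and none of these 3 calls held without the block or without the replicate 1 libraries (Mnat1 adjusted p = 0.0603 and 0.0590). Without the block the counts that fell were 3, 0 and 5, and without the replicate 1 libraries 11, 0 and 12. With the block 18.7% of all genes rose and 19.2% fell with TGFB2, 6.78% fell with BMP4, and 21.0% fell with both. Without it 1730 of all 15319 genes rose and 1693 fell with TGFB2, 344 fell with BMP4, and 1974 fell with both. Without the replicate 1 libraries 2815, 798 and 3083 of all 15296 genes fell in the same order. Cdk2, the main CIP/KIP target, fell by 0.82 ± 0.09 with TGFB2 (adjusted p = 8.12e-05) and by 0.90 ± 0.09 with both (adjusted p = 3.69e-05), and passed in both without the block. Cdk6, an INK4 target, fell by 0.82 ± 0.12 with TGFB2 (adjusted p = 0.000407, and 0.0570 without the block) and by 1.01 ± 0.12 with both (adjusted p = 9.07e-05), whereas its partner kinase Cdk4 stayed between 258 and 282 CPM on average and did not pass in any treatment (0.04, 0.12 and -0.0027). Ccnd3 (-0.79 and -0.94) and Ccnh (-0.63 and -0.70), a D-type cyclin and the cyclin of the CDK-activating kinase, fell in both groups with TGFB2. Ccnd1 fell by 0.52 ± 0.15 with TGFB2 (adjusted p = 0.0209) and by 0.51 ± 0.15 with both (adjusted p = 0.0217), but not past the threshold without the block or the replicate 1 libraries, and Ccnd2 was scarce at 1.11 to 1.56 CPM on average. Among the cyclins of CDK2 and CDK1, Ccne1 (-0.89 and -1.50), Ccne2 (-1.06 and -1.28) and Ccna2 (-1.30 and -1.85) fell in both groups with TGFB2. Of these 6 calls, only Ccne1 with both ligands passed without the block (adjusted p = 0.0308). Cdk1, the kinase of mitosis, passed with both ligands (-1.24 ± 0.39; adjusted p = 0.0282, and 0.330 without the block) and stood at -0.82 ± 0.39 with TGFB2 (adjusted p = 0.126).

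Genes downstream of the pocket proteins fell in both groups with TGFB2, though this depended on the block. Over all genes 19.2% fell with TGFB2, 6.78% with BMP4 and 21.0% with both. Of 27 E2F target genes, 20 fell with TGFB2, 0 with BMP4 and 23 with both, and none rose. Without the block the counts were 0, 0 and 4, and without the replicate 1 libraries again 20, 0 and 23. Over all 15319 genes, 1693, 344 and 1974 fell without the block. Without the replicate 1 libraries 2815, 798 and 3083 of all 15296 genes fell. The median log2 fold change of the list was -0.89, -0.09 and -1.19. The proliferation marker Mki67 averaged 93.0 ± 70.3 CPM in TGFB2 cells, 193 ± 72.7 in BMP4 cells, 80.7 ± 67.3 in BMP4-TGFB2 cells and 259 ± 70.1 in NT cells, with log2 fold changes of -1.98 ± 0.54 (adjusted p = 0.0155), -0.56 ± 0.51 (adjusted p = 0.522) and -2.27 ± 0.55 (adjusted p = 0.00782). The replication genes Mcm6 (-0.69 and -0.94) and Tyms (-0.57 and -1.05) also fell, and of their 4 calls only Tyms with both ligands passed without the block. Mki67 did not pass there (adjusted p = 0.232 and 0.164). The E2F list includes several genes of the other lists, namely Ccna2, Ccne1, Ccne2, E2f1, E2f7, E2f8 and Mybl2. Of 18 E2F and DREAM factors, 5 fell and 1 rose with TGFB2, 0 passed with BMP4, and 11 fell and 1 rose with both. Without the block 1 fell with TGFB2 and 5 with both, and without the replicate 1 libraries 6 and 9. With the block 19.2% of all genes fell and 18.7% rose with TGFB2, and 21.0% fell and 20.4% rose with both. The dimer partner Tfdp1 (-0.48 and -0.51), the p130 partner E2f5 (-0.71 and -0.91) and the repressor E2f8 (-1.81 and -2.38) fell, and Lin37, a subunit of the DREAM complex, was the gene that rose in both groups (0.65 and 0.64). The other 2 that fell with TGFB2 were Mybl2 (-1.08) and the DREAM subunit Lin9 (-0.47), named, like Lin37, after their values were seen. Without the block the gene that still fell with TGFB2 was E2f5 (adjusted p = 0.0139), and the calls of Tfdp1 (adjusted p = 0.165), E2f8 (0.108), Mybl2 (0.429) and Lin9 (0.127) were lost. Lin9 with TGFB2 was lost also without the replicate 1 libraries (adjusted p = 0.0745), and Tfdp1 (0.122) and Mybl2 (0.313) were lost without the block with both ligands. E2f1 and E2f4, the best-known activator and repressor E2F, did not pass in any treatment, at -0.23, 0.37 and -0.40 for E2f1 and -0.13, -0.19 and -0.04 for E2f4.

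**Figure D4:**
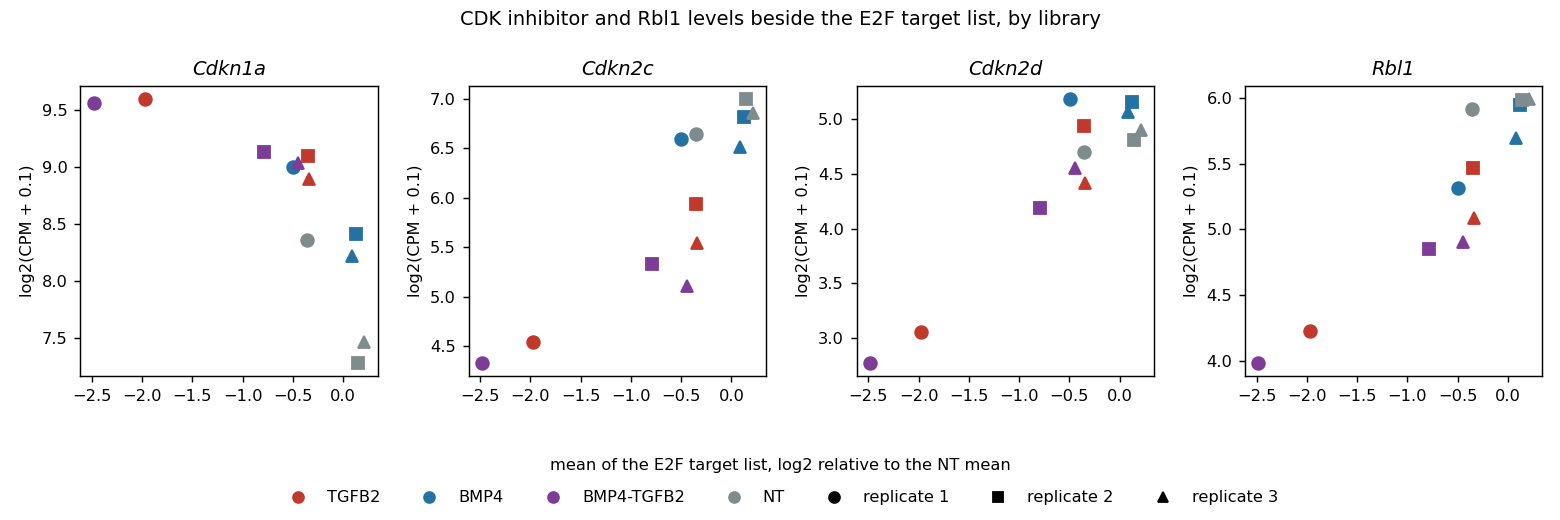
Levels of Cdkn1a, Cdkn2c, Cdkn2d and Rbl1, as log2(CPM + 0.1), against the mean of 27 E2F target genes in the same library, relative to the NT mean. The TGFB2 and BMP4-TGFB2 replicate 1 libraries lie farthest left, at -1.97 and -2.48, with the highest Cdkn1a and the lowest Cdkn2c, Cdkn2d and Rbl1.

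The 2 libraries with the lowest E2F target mean were those with the most Cdkn1a and the least Cdkn2c, Cdkn2d and Rbl1. TGFB2 replicates 2 and 3 (-0.35 and -0.34) had about the E2F target mean of NT replicate 1 (-0.36). Beside that library they had more Cdkn1a (548 and 476 against 330 CPM), less Cdkn2c (61.2 and 46.4 against 99.6 CPM) and less Rbl1 (44.1 and 33.8 against 60.2 CPM), while Cdkn2d lay on either side of it (30.6 and 21.3 against 25.9 CPM). BMP4 replicate 1 (-0.50) and BMP4-TGFB2 replicate 3 (-0.45) were also near that mean. They had 512 and 524 CPM of Cdkn1a, 96.4 and 34.3 of Cdkn2c, 39.7 and 29.8 of Rbl1, and 36.2 and 23.3 of Cdkn2d. These values describe single libraries, and all but BMP4 replicate 1 differ from NT replicate 1 in replicate number too. What set the libraries apart was not tested. No correlation over the pooled libraries is given, since the 4 groups differ in both measures.

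The genes that set the level of the inhibitors moved in mixed directions. Of 18 genes of turnover and repression of the inhibitors, 3 rose and 7 fell with TGFB2, 3 rose and 1 fell with BMP4, and 5 rose and 7 fell with both. Without the block 2 rose and 3 fell with TGFB2, 2 rose and 0 fell with BMP4, and 4 rose and 2 fell with both. Over all 15319 genes without the block, 1730 rose and 1693 fell with TGFB2, 489 and 344 with BMP4, and 2033 and 1974 with both. With the block 18.7% of all genes rose and 19.2% fell with TGFB2, 8.60% and 6.78% with BMP4, and 20.4% and 21.0% with both. Skp2, the ubiquitin ligase subunit that marks p27 for degradation, averaged 14.5 ± 6.92 CPM in TGFB2 cells, 18.3 ± 6.90 in BMP4 cells, 12.1 ± 6.43 in BMP4-TGFB2 cells and 25.3 ± 9.56 in NT cells. It fell by 0.82 ± 0.14 with TGFB2 (adjusted p = 0.00134) and by 1.13 ± 0.14 with both (adjusted p = 0.000156), calls that the fit without the block did not give (adjusted p = 0.261 and 0.125). Fbxl12, a ubiquitin ligase subunit reported to act on p21 and p57, rose to 13.3 ± 1.76 CPM with TGFB2 (adjusted p = 0.000717) and 15.0 ± 1.33 CPM with both (adjusted p = 0.000212), against 6.69 ± 1.01 CPM in NT cells. The other 2 that rose with TGFB2 were Rnf2 (0.53) and Ddb1 (0.28), named after their values were seen, and both rose with both ligands as well (0.39 and 0.44). The Ddb1 calls were lost without the block (adjusted p = 0.229 and 0.0575), and with TGFB2 also without the replicate 1 libraries (adjusted p = 0.128). The polycomb genes, whose products silence the Cdkn2a locus, moved in both directions in the groups with TGFB2, where Cdkn2a stayed at 0 to 4 counts. Suz12 (-0.55 and -0.60), Cbx7 (-0.69 and -1.07) and Ezh2 (-0.43 and -0.63) fell, Ezh2 not without the block (adjusted p = 0.378 and 0.191), Rnf2 rose as given above, and Bmi1 did not pass (-0.06 and -0.07; adjusted p = 0.649 and 0.592). Of the Id genes, repressors of E-protein activity at Cdkn1a and Cdkn2a, Id1 and Id3 rose with BMP4 (1.12 and 1.75) and with both (0.91 and 1.07), and Id2 fell with TGFB2 (-1.22 ± 0.11; adjusted p = 2.24e-05). With BMP4, Id2 rose (0.41, adjusted p = 0.0297) and Suz12 fell (-0.32, adjusted p = 0.0231), calls that were lost without the block and without the replicate 1 libraries.

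Of 25 transcriptional regulators of the inhibitors, 6 rose and 5 fell with TGFB2, 4 rose and 2 fell with BMP4, and 7 rose and 5 fell with both. Over all genes 18.7% rose and 19.2% fell with TGFB2, 8.60% and 6.78% with BMP4, and 20.4% and 21.0% with both. Without the block 4 rose and 1 fell with TGFB2, 2 rose and 1 fell with BMP4, and 5 rose and 3 fell with both. Over all 15319 genes without the block, 1730 rose and 1693 fell with TGFB2, 489 and 344 with BMP4, and 2033 and 1974 with both. Myc, the repressor of Cdkn2b and Cdkn1a that TGF-beta classically lowers, averaged 86.1 ± 31.0 CPM in TGFB2 cells, 86.1 ± 16.3 in BMP4 cells, 88.2 ± 26.1 in BMP4-TGFB2 cells and 90.1 ± 15.2 in NT cells, with log2 fold changes of -0.12 ± 0.13, -0.07 ± 0.13 and -0.06 ± 0.13 (adjusted p = 0.512, 0.772 and 0.740). Its relative Mycn fell in all 3 treatments from a low level, to 3.47 ± 1.72 CPM with TGFB2, 1.36 ± 0.59 with BMP4 and 2.30 ± 1.18 with both, against 9.74 ± 4.78 in NT cells. The Myc and Mycn levels are from the only time sampled, and earlier changes were not measured. The transcript of p53, Trp53, did not pass (0.19, 0.12 and 0.14). Mdm2, a p53 target and the p53 ligase, rose with TGFB2 (1.18 ± 0.18; adjusted p = 0.000604) and with both (1.11 ± 0.18; adjusted p = 0.000707), and stood at 0.56 ± 0.18 with BMP4 (adjusted p = 0.0584), where it passed without the replicate 1 libraries (0.77, adjusted p = 0.00359). The factors Ets1 (2.11, 1.25 and 2.26) and Klf6 (0.69, 0.45 and 0.75), which are known to act on inhibitor promoters, rose in all 3 treatments. Mnt, a competitor of Myc for MAX, rose with TGFB2 (0.58) and with both (0.70). Without the block, Klf6 did not pass with TGFB2 (adjusted p = 0.0531) or BMP4 (adjusted p = 0.334), nor Mnt (adjusted p = 0.0991) or Mycn (adjusted p = 0.0657) with TGFB2. Named after their values were seen, Max (-0.32 and -0.38), Foxo3 (-0.52 and -0.47), Egr1 (-0.95 and -1.27) and Foxo1 (-0.38 and -0.47) were the other genes that fell with TGFB2 and with both ligands. Without the block Max was lost in both groups (adjusted p = 0.308 and 0.198), Egr1 (0.0779) and Foxo1 (0.0545) with TGFB2, and Foxo3 (0.0556) with both ligands. The last 3 of these calls were lost also without the replicate 1 libraries (adjusted p = 0.0965, 0.0945 and 0.0599). Hes1, a Notch target, rose in all 3 treatments (0.89, 0.99 and 1.06). Gata3 (0.53) was the other gene that rose with BMP4, and Smad3 (-0.42) the other that fell. Without the block neither passed (adjusted p = 0.125 and 0.343), and Smad3 did not pass without the replicate 1 libraries (adjusted p = 0.153). Gata3 is also one of the mammary luminal markers.

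Of 11 genes of TGF-beta and BMP receptors and of inhibitors of SMAD signalling, 7 rose and 2 fell with TGFB2. With BMP4 5 rose and 1 fell, and with both ligands 9 rose and 2 fell. These counts were the same without the block. There 1730 of all 15319 genes rose and 1693 fell with TGFB2, 489 and 344 with BMP4, and 2033 and 1974 with both. With the block 18.7% of all genes rose and 19.2% fell with TGFB2, 8.60% and 6.78% with BMP4, and 20.4% and 21.0% with both. The feedback inhibitor Smad7 averaged 144 ± 14.8 CPM in TGFB2 cells, 138 ± 10.7 in BMP4 cells, 207 ± 10.1 in BMP4-TGFB2 cells and 46.4 ± 7.96 in NT cells. Pmepa1 (2.24, 1.46 and 2.23), whose product restrains SMAD signalling, and the BMP-side inhibitor Smad6 (1.49, 2.80 and 2.45) rose in all 3 treatments. So did Skil, a SMAD corepressor gene, by 1.47 ± 0.12 with TGFB2 and 1.53 ± 0.12 with both ligands, and Tgfbr1, a receptor. The genes that fell were Tgfbr3 in all 3 treatments (-4.01, -3.45 and -4.37) and Tgfbr2 with TGFB2 (-0.61) and with both ligands (-0.52), the co-receptor and the type II receptor of TGF-beta.

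**Figure D5:**
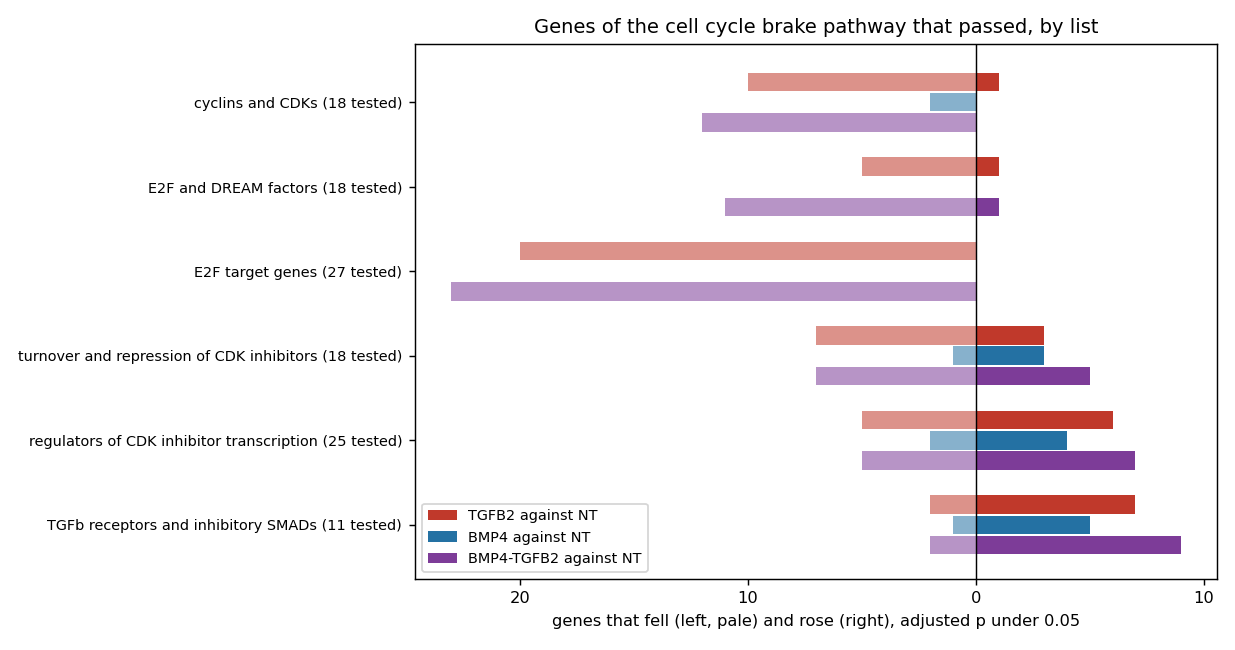
Number of genes in 6 lists that fell (left, pale) or rose (right, dark) at an adjusted p under 0.05 against NT, for TGFB2 (red), BMP4 (blue) and BMP4-TGFB2 (purple). Of 27 E2F target genes 20 fell with TGFB2 and 23 with both ligands, and 0 with BMP4. Over all genes 19.2%, 21.0% and 6.78% fell in the same order. These are counts with the replicate number as a block.

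The genes whose pattern over the 12 libraries was most like that of a gene that changed were found by the root mean square difference of centred log2 CPM, among 10197 genes. For Cdkn1a they were Map1lc3b (0.122), Calcoco1 (0.154) and Slc35e3 (0.167), where the median gene differed by 0.762. For Cdkn1b they were Sox9 (0.0886), Abhd17c (0.101) and Ezr (0.119), with a median of 0.388. For Cdkn2c they were Spats2l (0.198), Ano9 (0.213) and Rbmx (0.223), with a median of 0.927, and for Rbl1 Tinf2 (0.144), Pkmyt1 (0.154) and Haus5 (0.156), with a median of 0.702. These values are in log2 units and describe likeness alone.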

How the data were processed

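Per the labels' protocols, polyadenylated RNA was sequenced from 12 libraries. The submitters' processing notes name Salmon 1.2.1, STAR 2.7.5b, bcl2fastq 2.17 and the build GRCm38.p6, without settings. The authors deposited estimated counts per gene (Salmon, per the file headers), of which 82.9% were whole. They were made whole by rounding, a change of 0.000361% in the total. The authors also deposited TPM values, scaled to 1000000 per library and used here for levels between genes, and a size-factor normalized signal table, equal to the counts divided by factors of 0.844 to 1.24, that was checked but not tested. The deposited sample table lists all libraries as unstranded and of 1 batch.

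Genes were filtered with filterByExpr (minimum count 10) and tested with the quasi-likelihood test of edgeR 4.0.16 (R 4.3.3) in 1 model of all 12 libraries with TMM factors of 0.971 to 1.03, group terms and the replicate number as a block, for 7 comparisons. SE is the log2 fold change divided by the root of F. The common biological coefficient of variation was 0.196. The labels number the replicates alike in each group. Correlations between same-numbered libraries, after centring on the group mean, were above 0.1 in every pair for BMP4 against NT (0.178 to 0.471), BMP4-TGFB2 against TGFB2 (0.269 to 0.555), BMP4-TGFB2 against BMP4 (0.166 to 0.380) and BMP4 against TGFB2 (0.164 to 0.371). Replicate 2 fell short in TGFB2 against NT (0.0901) and BMP4-TGFB2 against NT (0.0268), so values without the block are printed where they changed a call. No 2 libraries of a group agreed within sampling noise (lowest chi-square per degree of freedom 29.0).

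The genes, lists and rules were chosen with earlier results of these data known. All 10 genes were named. From each other list, the 3 genes of smallest p among those that passed in each treatment, and a fixed set of cell cycle genes, were named. Positions are from GENCODE on GRCm38, and promoter windows of 250 bases from RefSeq. Alternatives were RLE factors, no filter, DESeq2 1.42.0, limma voom and limma on log2(TPM + 0.1) (limma 3.58.1), the compared groups only, leaving out each library, and leaving out all replicate 1 libraries. All of these alternatives carried the replicate block. The pipeline was tested on simulated data.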

Additional observations from a re-analysis of the deposited data

Results flagged for a closer look

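The effect of TGFB2 differed with and without BMP4, by the interaction term of edgeR's quasi-likelihood test, for 7 of the genes named. For Cdkn1a the log2 effect was 0.70 with BMP4 and 1.48 without it, a difference of -0.78 (adjusted p = 0.0494), which passed in 4 of 19 alternatives. Ets1 had 1.01 with BMP4 and 2.11 without it (-1.10, adjusted p = 0.0387), passing in 8 of 19. Mycn had 0.67 with BMP4 and -1.57 without it (2.24, adjusted p = 0.0495), passing in 4 of 19. Pmepa1 had 0.77 with BMP4 and 2.24 without it (-1.47, adjusted p = 0.00565) and passed in 19 of 19. Skil had 0.53 with BMP4 and 1.47 without it (-0.95, adjusted p = 0.0230), passing in 9 of 19. Smad6 had -0.35 with BMP4 and 1.49 without it (-1.84, adjusted p = 0.0282), passing in 10 of 19. Smad7 had 0.59 with BMP4 and 1.64 without it (-1.05, adjusted p = 0.0120), passing in 16 of 19. In all 7 genes BMP4 alone had moved the transcript the same way as TGFB2 alone against NT. Over all genes 1.83% passed this test.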

How the results depend on the processing

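Cdkn1a, Cdkn2c and Rbl1 kept direction and call in TGFB2 and in BMP4-TGFB2 against NT under all 20 alternatives, with log2 fold changes of 1.33 to 1.70 for Cdkn1a, -2.03 to -1.19 for Cdkn2c and -1.57 to -0.71 for Rbl1, as did Cdkn2c in BMP4-TGFB2 against BMP4 and BMP4 against TGFB2. Where a call was lost, the cause was not tested. Without the replicate block 3423 genes passed in place of 5799 for TGFB2 against NT, 833 of 2356 for BMP4 against NT, 4007 of 6342 for BMP4-TGFB2 against NT, 0 of 6 for BMP4-TGFB2 against TGFB2, 1412 of 3476 for BMP4-TGFB2 against BMP4, 1200 of 2999 for BMP4 against TGFB2 and 24 of 280 for the interaction. Every library correlated best with its own number except replicate 2 in BMP4-TGFB2 against NT. With the compared groups only, 3859, 3941 and 500 genes passed for TGFB2 against NT, BMP4-TGFB2 against NT and BMP4-TGFB2 against TGFB2. For the last, RLE factors gave 10, no filter 136, DESeq2 181 and limma voom 21. For the interaction no filter gave 611, DESeq2 846, limma on TPM 73, and leaving out every replicate 1 library 145. Limma on TPM gave 1554 for BMP4 against NT. Leaving out 1 library gave 1199 to 2342 genes for BMP4 against NT, 2 to 13 for BMP4-TGFB2 against TGFB2, 2031 to 4144 for BMP4-TGFB2 against BMP4, 1706 to 3660 for BMP4 against TGFB2 and 61 to 447 for the interaction.

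Signs turned only for values that had not passed. Leaving out 1 library gave ranges of -0.38 to 0.20 for Rb1 and -0.11 to 0.27 for Rbl2 with TGFB2, -0.14 to 0.038 for Cdkn1b, -0.14 to 0.69 for Cdkn2d and -0.032 to 0.34 for Rbl2 with BMP4, and -0.17 to 0.17 for Cdkn1c and -0.16 to 0.22 for Rbl2 with both. In BMP4-TGFB2 against TGFB2 they were -0.0014 to 0.14 for Cdkn1a and -0.67 to 0.093 for Cdkn2d, and for the interaction -0.49 to 0.016 for Cdkn2c and -0.30 to 0.16 for Rbl1. Limma on TPM gave 0.0070 for Rb1 with TGFB2, 0.099 for Cdkn1c with both and 0.016 for Rbl1 in the interaction, where no filter gave 0.0049. The compared groups alone gave 0.018 for Cdkn1c with both. Without the replicate block Rbl2 was 0.0038 with both. Leaving out every replicate 1 library gave 0.20 for Rb1 with TGFB2, and 0.11 for Rb1 and 0.27 for Rbl2 with both. With RLE factors the median shift of the log2 fold changes over genes was at most 0.0067 in size in any comparison. Depth limits Cdkn2a and Cdkn2b, where a count of 0 allows 0.0710 to 0.105 CPM over the 12 libraries.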

Other observations

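Rb1 TPM and CPM did not follow each other across libraries. TGFB2 replicate 3 had 17.4 TPM at 22.5 CPM, whereas TGFB2 replicate 2 had 7.89 TPM at 23.6 CPM, and in BMP4-TGFB2 cells replicate 1 had 3.62 TPM at 11.5 CPM against 14.8 TPM at 20.6 CPM in replicate 3. TPM also divides by transcript length, and Rb1 has 6 annotated transcripts. Their part in the difference was not tested, and the TPM rank of Rb1 beside Rbl2 is uncertain.

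Cdkn2b reached 29 counts in TGFB2 replicate 1, 9 in BMP4 replicate 1 and 11 in BMP4-TGFB2 replicate 1, the highest library of each group, against 4 in NT replicate 1, which was not the highest of its group.

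Basal or myoepithelial markers summed to 357 to 582 TPM in TGFB2 libraries, 941 to 1326 TPM in BMP4 libraries, 425 to 990 TPM in BMP4-TGFB2 libraries and 183 to 410 TPM in NT libraries, with 2 of 6 above 1 TPM. Krt14 carried nearly all of it. Its part in the results was not tested.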
